A study of Mus musculus with 6 samples.

Results

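The nuclei described here were gated as liver sinusoidal endothelial nuclei in which hardly any RNA of either lobule end was counted. They were selected on UMIs, the unique molecules counted per gene and nucleus, in single-nucleus RNA sequencing of mouse liver. A nucleus was a member if it passed the quality gates (at least 500 genes and 1000 UMIs, under 5% mitochondrial UMIs and under 0.3% of UMIs from the hepatocyte genes Apob, Cps1, Abcb11 and Mat1a). It also needed at least 5 UMIs of Stab2, Ptprb, Flt1 and Kdr together, at most 3 of Reln and Clec4f and at most 1 of Vwf and Mmrn1. Last, it could hold at most 1 UMI of the pericentral genes Wnt2, Wnt9b, Kit, Lhx6 and Plppr5 and at most 1 UMI of the periportal genes Efnb2, Ntn4, Mecom, Bmper and Adam23. These gates gave 196 members, which were 2.14% of 9151 sinusoidal nuclei and 0.718% of the 27297 deposited barcodes.

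Sinusoidal endothelial cells line the liver's capillaries. Their fenestrae let plasma reach the hepatocytes, and their scavenger receptors clear macromolecules from blood. Their expression changes along the lobule, with Wnt ligands made near the central vein and arterial and Notch-related genes near the portal tract, and cells of the middle of the lobule are usually recognised by having little of both. Plvap encodes the protein of the diaphragms that span caveolae and fenestrae of many endothelia.

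The series compared 3 littermate control mice with 3 mice in which Plvap was knocked out in hepatic stellate cells, the pericytes of the sinusoid, with a Cre transgene driven by Lrat. All 6 were males of 18 weeks on the C57BL/6JBomTac strain label, fed chow and fasted for 12 hours overnight, and each gave 1 library. The same designation, Plvaptm1.1Salm-Tg(Lrat-cre)1Rshw, is given for both groups, and whether the control mice carried Cre is not said in the labels. The title places the study in how stellate cells, through Plvap, affect the liver's use of fatty acids.

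Members numbered 48, 21 and 16 in controls 1 to 3 and 46, 36 and 29 in knockouts 1 to 3. Their summed UMIs came to 534236, from 55250 to 134661 per mouse. That depth limits every gene value below: 3 UMIs, the count below which a level was treated as not detected, equalled 22.3 to 54.3 CPM (counts scaled to a common total per mouse), for counting error only. Libraries held 23153182 to 27199466 UMIs, and any pair of the 15 library pairs shared 1 to 10 barcodes. The rule removes no doublets. Scrublet called 5 members (2.55%) and 118 of all sinusoidal nuclei (1.29%) doublets.

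Checked against its markers, the set was endothelial for the most part. Zone genes outside the rule, summed by list, put it between the pericentral and periportal nuclei, as they also put nuclei high for both. For the periportal genes among these, nuclei outside the sinusoidal set lay there too in 5 of 6 mice. The zone gate itself rested largely on 1 gene. Stab2, the hyaluronan receptor of sinusoidal endothelium, was carried by 88.3% of members, although it was part of the gate. Flt4, the VEGFC receptor, was carried by 49.5% of members (median depth 2378.5 UMIs) against 1.60% of 6633 nuclei with no UMI of the 4 endothelial gate genes (median depth 3900 UMIs). The other 2 genes put forward as markers, the complement-regulator-like gene Csmd1 and the nuclear receptor Esrrb, were carried by 10.7% and 9.18% of members, against 0.950% and 0.286% of those nuclei. Thinned to 1000 UMIs per nucleus, Flt4, Csmd1 and Esrrb were seen in 34.2%, 8.67% and 7.14% of members and in 37.3%, 3.75% and 4.0% of nuclei of the periportal gate. Csmd1 rested on few nuclei, with 118 UMIs in 21 members and 24.6% of them in 1 nucleus. In members with 5 to 9 and 10 to 19 UMIs of the 4 gate genes its pooled level was 272 and 502 CPM. In members with 20 or more it was 139 CPM, so Csmd1 did not rise with the gate genes. Control 3 gave 32 of 32 Csmd1 UMIs in the first of these sets and 32 of 39 in the second.

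The periportal side of the zone gate rested mostly on 1 gene. Adam23, which encodes a membrane adhesion protein of the ADAM family without protease function, gave 74% of all periportal-gene UMIs in sinusoidal nuclei (mm10, chromosome 1, 63445891 to 63596276, plus strand). It was present in 95.8% of the 4400 nuclei with at least 2 periportal and at most 1 pericentral UMI (the periportal gate) and in 98.1% of the 4183 nuclei with at least 2 of both, with a median of 9 UMIs in each. Nuclei without an Adam23 UMI were thus a minority of sinusoidal nuclei. With Adam23 dropped from the periportal genes, 1740 nuclei (19% of sinusoidal nuclei) would have been members in place of 196, and 93.2% of those carried Adam23. The nuclei are called here by their rule, the members. The remaining 372 sinusoidal nuclei had at least 2 pericentral and at most 1 periportal UMI (the pericentral gate).

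At the zone threshold, 49 members had no UMI of either side, 40 had 1 pericentral UMI alone, 60 had 1 periportal UMI alone and 47 had 1 of each. Just outside lay 66 and 57 nuclei with 2 periportal UMIs and 0 or 1 pericentral, and 30 and 34 with 2 pericentral UMIs and 0 or 1 periportal. Median depths were 2134.5 to 2834 UMIs in the 4 inner sets and 1787.5 to 2816.5 UMIs in those 4 outer ones.

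Membership went with shallow sequencing. Members had a median of 2378.5 UMIs and 1456.5 genes per nucleus, against 3229 UMIs in the pericentral gate, 3223.5 in the periportal gate and 3995 in nuclei high for both. Of sinusoidal nuclei under 2000 UMIs, 8.63% were members (72 of 834, 95% Wilson interval 6.91 to 10.7). The share was 2.90% (67 of 2313, 2.29 to 3.66) from 2000 UMIs, 0.911% (39 of 4279, 0.667 to 1.24) from 3000 UMIs and 1.04% (18 of 1725, 0.661 to 1.64) at 5000 UMIs or more. When every nucleus was thinned to 1500 UMIs before gating, 781 of 8980 nuclei (8.70%) were members.

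Members made up 2.67%, 1.23% and 1.52% of the sinusoidal nuclei of the controls and 2.57%, 2.58% and 2.05% of those of the knockouts. The 3 knockouts lay close together and inside the range of the controls, of which control 1 was the highest mouse of all. The means were 1.81% ± 0.759 and 2.40% ± 0.307 (SD, n = 3 each), a difference of 0.590 percentage points that did not exceed the spread (two-sided exact permutation test, p = 0.4, 0.8 after adjustment over the 4 gates; the smallest p that 3 against 3 mice allow is 0.1). In the shallowest bin the knockouts, at 11.7%, 13.4% and 11.3%, lay above the controls, at 7.36%, 4.19% and 9.09%. In the bins from 2000, 3000 and 5000 UMIs the groups overlapped. Without Adam23 in the gate, an alternative chosen after seeing the data, the difference turned to -2.37 percentage points (exact permutation p = 0.6).

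**Figure D1:**
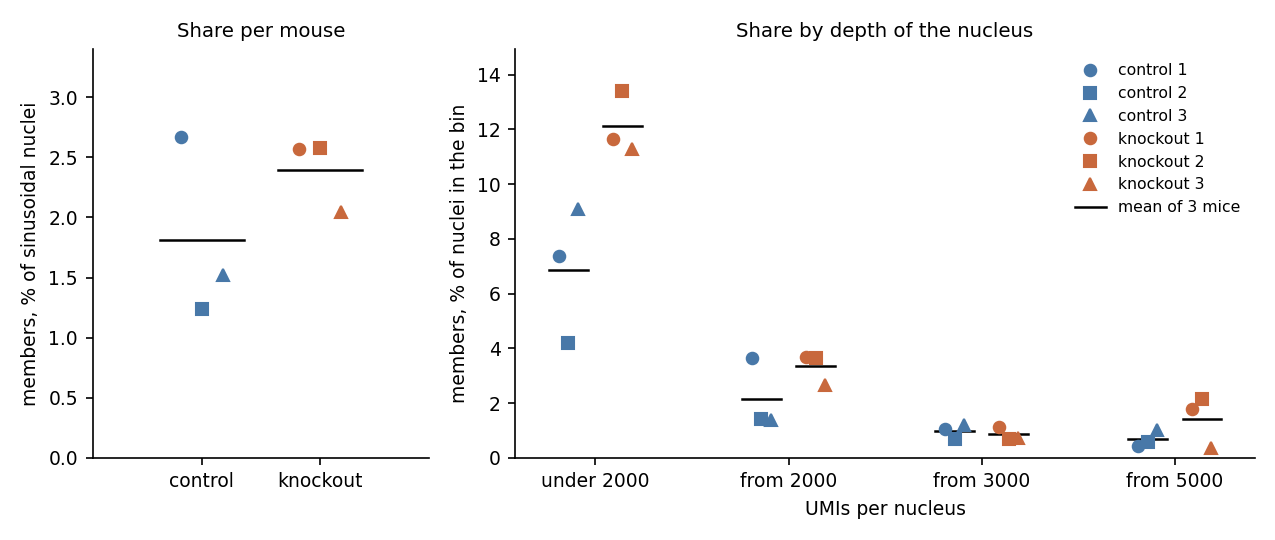
Share of sinusoidal nuclei that were members, per mouse (left, y axis in percent) and per mouse in 4 bins of UMIs per nucleus (right); points are mice and bars are means of 3. Knockouts sit between 2.05% and 2.58% and controls between 1.23% and 2.67%, and in both groups the share is highest, 4.19% to 13.4%, in nuclei under 2000 UMIs.

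The members were not uniform. By their UMIs of Stab2, Ptprb, Flt1 and Kdr, 128 members (65.3%) had 20 or more, 38 (19.4%) had 10 to 19 and 30 (15.3%) had 5 to 9. These bounds were chosen after seeing the data, so the strata are described without a test, and the 4 gate genes order them by construction. In members of 20 or more, the pooled level of Stab1, a scavenger receptor outside the gate, was 1221 CPM and that of Flt4 was 578 CPM. In members of 5 to 9 these were 85.0 and 34.0 CPM. The C-type lectin Clec4g, the mannose receptor Mrc1 and the Fc receptor Fcgr2b went the same way, at 1124, 2079 and 752 CPM in the first and 51.0, 170 and 51.0 CPM in the last.

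Markers of stellate cells, cholangiocytes and macrophages ran in the other direction. The 13 stellate markers summed to 85.5 CPM in members of 20 or more endothelial UMIs, 1378 CPM in those of 10 to 19 and 2288 CPM in those of 5 to 9. The 9 cholangiocyte markers summed to 17.7, 876 and 2517 CPM, carried largely by Bicc1, an RNA-binding protein of duct epithelium, which was at 0 in the first and 1990 CPM in the last. The 13 macrophage markers summed to 401, 515 and 995 CPM, with 53.2% of the UMIs of Ptprc, the leukocyte antigen CD45, in 2 of the members of 5 to 9. Of these lists 12 of 13 stellate markers (Rgs5 at 0), 8 of 9 cholangiocyte markers (Krt7 at 0) and 13 of 13 macrophage markers had a UMI in members. Lrat, the gene whose promoter drives the Cre and which defines stellate cells, had 2 UMIs in all members, while Dcn and Col3a1, matrix genes shared with fibroblasts, had 149 and 98. Nuclei of 5 to 9 endothelial UMIs numbered 5, 6 and 4 in the controls and 4, 8 and 3 in the knockouts. The hepatocyte markers had no such order. They were at 3958 CPM in members of 20 or more, 4728 in those of 10 to 19 and 3445 in those of 5 to 9. The rule caps Reln of the stellate list, Clec4f of the macrophage list and Apob, Cps1, Abcb11 and Mat1a of the hepatocyte list. These sums thus hold some counts that the rule used. The 8 B cell markers summed to 257, 309 and 697 CPM, led by Ebf1, while Pax5 and Ighm were highest in members of 20 or more. The members of 5 to 9 were also deep, with a median of 3738.5 UMIs against 2439.5 in those of 20 or more. At the edge itself, the 9 members with exactly 5 endothelial UMIs and the 15 nuclei with 4 that met every other gate had no Flt4 UMI, and their stellate markers summed to 2860 and 1616 CPM.

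**Figure D2:**
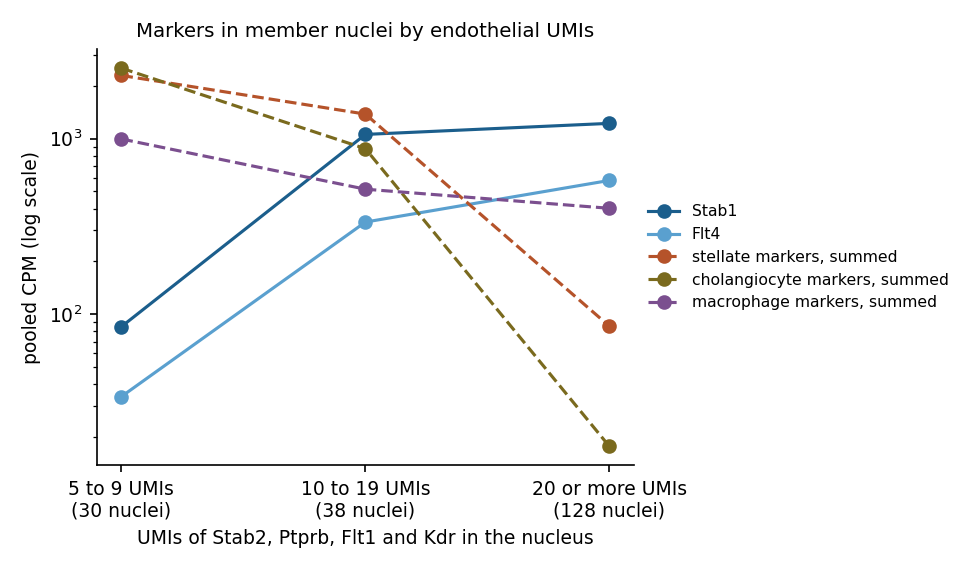
Pooled level (CPM, log scale) of Stab1, Flt4 and 3 summed marker lists in members, by the UMIs of Stab2, Ptprb, Flt1 and Kdr in the nucleus. Stab1 and Flt4 are at 1221 and 578 CPM in the 128 nuclei of 20 or more UMIs and at 85.0 and 34.0 CPM in the 30 nuclei of 5 to 9, where the stellate and cholangiocyte lists reach 2288 and 2517 CPM.

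The genes that stood highest in members against the pericentral and periportal gates lay mostly in members under 20 endothelial UMIs. The rule chose the nuclei on the same cells, so these levels are a description. Of 9656 genes at 10 CPM or more, 308 were higher in members than in the mean of those gates in all 6 mice, and 398 were lower. The 10 with the largest ratio upward were Mfap4, Fbln1, Pappa, Dpep1, Lama2, Frem1, C7, Slc24a3, Antxr1 and Gli3, several of which encode matrix or basement membrane proteins of mesenchymal cells. Lama2, a laminin chain, averaged 509 CPM in members (43.8 to 959 per mouse) against 1.77 and 3.66 CPM in the pericentral and periportal gates. It was carried by 24 members, and members of 20 or more endothelial UMIs held 0.862% of its UMIs. The complement gene C7 averaged 595 CPM, with 282 UMIs in 16 members and 99 of them in 1 nucleus. None of its UMIs came from members of 20 or more endothelial UMIs.

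The 10 genes with the largest ratio downward were Nrg1, Chmp2a, Rph3al, Myrip, Tenm1, Dand5, Hpse2, Hspa4l, Ccdc88c and Mctp1, each with 1 to 6 UMIs in members. Nrg1, the ErbB ligand neuregulin, averaged 160 CPM in the periportal gate (91.3 to 281 per mouse) and 4.66 CPM in the pericentral gate. Members held 3 Nrg1 UMIs in all.

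Summed by list, the zone genes outside the rule lay between the pericentral and periportal gates in members. The 10 pericentral genes outside the rule summed to 1843 to 3203 CPM in members, against 5599 to 10163 CPM in the pericentral gate and 1364 to 1851 CPM in the periportal gate. The 10 periportal genes outside the rule summed to 633 to 842 CPM, against 436 to 623 and 1509 to 1936 CPM. Within each of the 6 mice members lay between those gates for both lists, and so did the nuclei high for both, at 2982 to 3769 and 783 to 979 CPM. Nuclei outside the sinusoidal set were at 481 to 694 CPM for the periportal list, a range overlapping that of members. They lay between the gates in 5 of 6 mice, so this place on the periportal list was not particular to sinusoidal nuclei. For the pericentral list they were at 645 to 847 CPM, below both gates. These levels come from nuclei chosen by the rule and are given without a test. Cdh13, a cadherin that is higher in pericentral sinusoids, was at 973, 1289 and 1122 CPM in control members and 683, 778 and 1338 CPM in knockout members. The members of both groups thus lay below the pericentral gate (2306 to 4952 CPM) and, in all but knockout 1, above the highest mouse of the periportal gate (306 to 745 CPM). Msr1, a macrophage scavenger receptor found in periportal sinusoids, was at 263, 53.7 and 18.1 CPM in control members and 171, 173 and 85.4 CPM in knockout members. In control 3 this was 1 UMI, under the limit of 3 UMIs. Every mouse was below the 599 to 761 CPM of the periportal gate, and controls 2 and 3 and knockout 3 lay within the 0 to 106 CPM of the pericentral gate. Rspo3, a Wnt enhancer of the central vein, was at 44.6 to 114 CPM in 5 mice and 527 CPM in knockout 3. It was at 869 to 2660 CPM in the pericentral gate and 1.92 to 10.4 CPM in the periportal gate. Car8, also of the pericentral list, did not lie between the gates in every mouse. It was at 552, 394 and 362 CPM in control members and 260, 307 and 299 CPM in knockout members. The periportal gate gave 456, 375 and 378 CPM in controls and 453, 372 and 309 CPM in knockouts. Members of control 3 and of all knockouts thus lay below it.

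**Figure D3:**
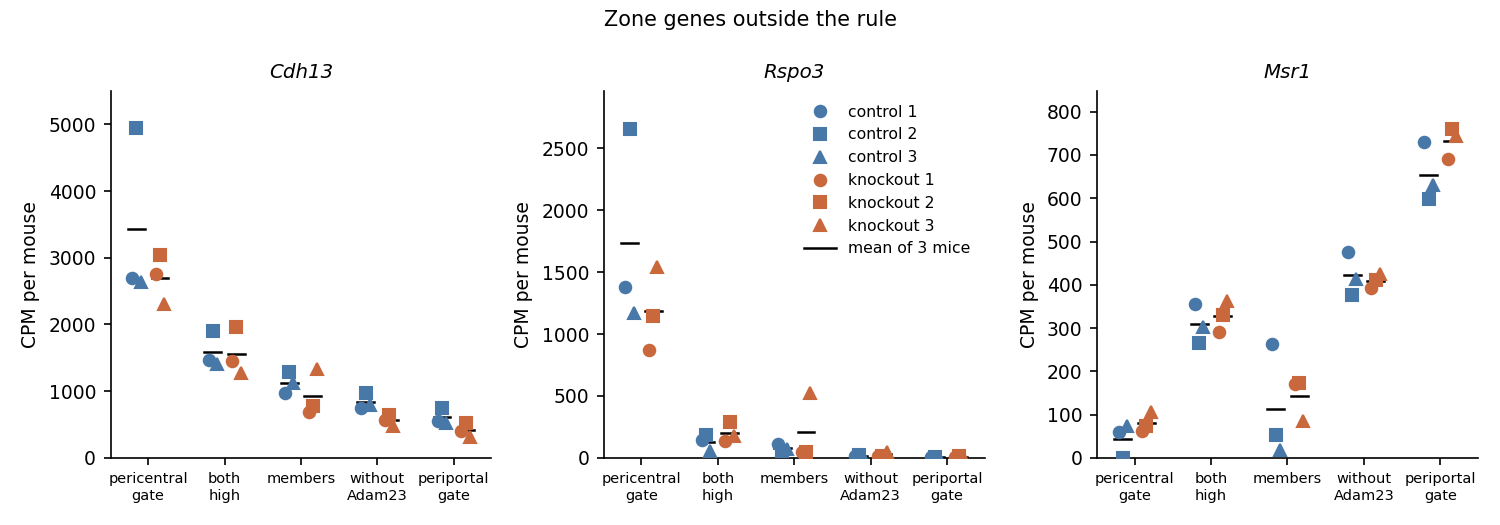
CPM per mouse of Cdh13, Rspo3 and Msr1 in members, in the 3 other gates and in the 1740 nuclei gated without Adam23; points are mice and bars are means of 3. Members lie between the gates for Cdh13 (683 to 1338 CPM) and below the periportal gate for Msr1 (18.1 to 263 CPM), and between them for Rspo3 (44.6 to 527 CPM).

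For control against knockout, UMIs were summed per mouse over members and compared with edgeR's quasi-likelihood test, with the mouse as replicate. The p-values measure the spread between these 6 mice. Plvap comes first (mm10, chromosome 8, 71497765 to 71511752, minus strand). Members held 3, 4 and 1 Plvap UMIs in the controls and 3, 1 and 0 in the knockouts. All 6 values are at or near the level that 3 UMIs give, and the groups overlap. Plvap missed the filter on low counts, and without that filter its log2 fold change was -1.40 (SE 1.10, unadjusted p = 0.206 in edgeR). The knockout was aimed at stellate cells and the sources used here do not name the deleted exons, so these counts check no label.

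No gene passed the threshold of 0.05 on the adjusted p in members, out of 2141 tested (0%; edgeR, smallest adjusted p 0.633). DESeq2 called 0 as well. At an unadjusted p under 0.05 there were 48 genes in edgeR, 2.24% of those tested. The 3 knockouts lay all above or all below the 3 controls for 171 genes, 7.99% of those tested. The median log2 fold change was 0.01, and 1089 genes had a positive and 1052 a negative value. The median standard error was 0.39 on the log2 scale, so small changes were not detectable at this depth. An estimate as large as 1.87 (Rgs7bp, edgeR adjusted p = 0.633) did not pass either, so 0 calls do not exclude large changes. Without control 1, which holds the most control members, edgeR called 1 gene, Nxph1, a neurexin ligand with 44.4% of its UMIs in 1 member of 10 to 19 endothelial UMIs. With no filter on low counts it called 12 of 15726.

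The genes named next had the lowest unadjusted p among those whose mice did not overlap, and none passed the adjusted threshold. Among those with higher values in knockouts, Rgs7bp, which anchors a regulator of G protein signalling at the membrane, had 10, 3 and 3 UMIs in control members and 41, 23 and 17 in knockout members. All 3 knockouts, at 221 to 304 CPM, were above the controls, at 53.7 to 87.7 CPM (log2 fold change 1.87, SE 0.40, edgeR adjusted p = 0.633). With Adam23 dropped from the gate the log2 fold change was 0.58 (SE 0.17, edgeR adjusted p = 0.787).

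Hgf, the hepatocyte growth factor that endothelial and stellate cells supply to hepatocytes, stood at 412, 304 and 380 CPM in control members and 691, 691 and 641 CPM in knockout members. The knockouts were tightly grouped above the controls (log2 fold change 0.86, SE 0.28, edgeR adjusted p = 0.999). Members of 20 or more endothelial UMIs, a part of these nuclei, stood at 413 to 569 and 684 to 742 CPM. In the periportal gate the groups overlapped, at 666 to 697 and 652 to 1091 CPM (0.30, SE 0.16). In the pericentral gate they just overlapped, at 109 to 269 CPM in controls and 266 to 520 CPM in knockouts. The Hgf log2 fold change there was 1.15 (SE 0.30, edgeR adjusted p = 0.610), so the higher value was not particular to members. Without Adam23 in the gate the log2 fold change was 0.43 (SE 0.16). Calcrl, the receptor for adrenomedullin, was at 316, 340 and 561 CPM in the controls and 906, 595 and 1025 CPM in knockouts, so that knockout 2 lay just above control 3 (1.04, SE 0.34, edgeR adjusted p = 0.999). In the nuclei gated without Adam23 its log2 fold change was 0.04 (SE 0.20). In members of 20 or more endothelial UMIs the Calcrl groups overlapped, at 352 to 1037 CPM in controls and 968 to 1465 CPM in knockouts.

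The rest of the upward set were Sntb1, a syntrophin, Robo1, a Slit receptor, the lysosomal protease Ctsl and the palmitoyltransferase Zdhhc20, with log2 fold changes of 1.03 to 1.21. Without Adam23 in the gate these 4 had log2 fold changes of 0.01 to 0.31.

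Downward, the mitochondrial inner membrane peptidase gene Immp2l had 42, 17 and 26 UMIs in control members and 12, 16 and 11 in knockout members. The controls, at 304 to 471 CPM, lay above the knockouts, at 89.1 to 157 CPM (log2 fold change -1.55, SE 0.36, edgeR adjusted p = 0.673). In the nuclei gated without Adam23 its log2 fold change was -0.00 (SE 0.17). Sp3 and Brd1, a transcription factor and a chromatin reader, had log2 fold changes of -1.48 and -1.26. Banp, Nf1 and Mrtfa, a nuclear matrix protein, a Ras regulator and an actin-controlled coactivator, had -1.28, -0.93 and -1.07. In the nuclei gated without Adam23 these 5 had values of -0.42 to -0.00.

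**Figure D4:**
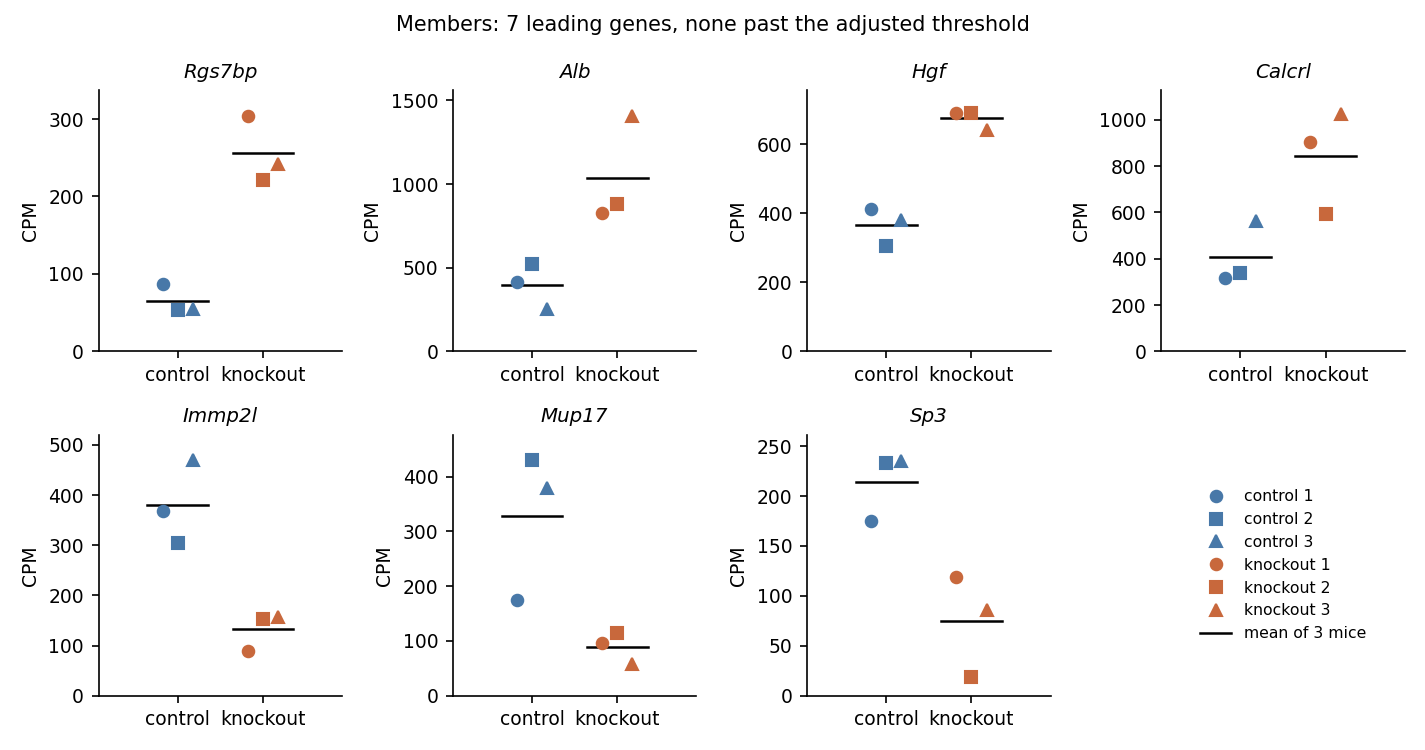
CPM per mouse in members for 7 of the 16 genes with the lowest unadjusted p whose groups do not overlap; points are mice and bars are means of 3. Rgs7bp, Alb, Hgf and Calcrl are higher and Immp2l, Mup17 and Sp3 lower in all 3 knockouts, and none passes the adjusted threshold.

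Transcripts of hepatocytes were in both directions among these genes. Alb, albumin, had 47, 29 and 14 UMIs in control members and 111, 92 and 99 in knockout members. The controls were at 253 to 519 CPM and the knockouts at 824 to 1409 CPM, with no overlap (log2 fold change 1.36, SE 0.35, edgeR adjusted p = 0.747). Its log2 fold change was 1.03 (SE 0.19) in the periportal gate and 1.07 (SE 0.20, edgeR adjusted p = 0.184) in the nuclei gated without Adam23. Mup17, a major urinary protein of a family of near-identical copies whose reads may be split between them, had 20, 24 and 21 UMIs in controls and 13, 12 and 4 in knockouts (-1.80, SE 0.45, edgeR adjusted p = 0.747). Cyp2e1, a pericentral hepatocyte enzyme, had a log2 fold change of -1.48 (SE 0.54). In the nuclei gated without Adam23 Mup17 had -1.36 (SE 0.33) and Cyp2e1 -0.51 (SE 0.19). In the periportal gate they had -1.36 (SE 0.31) and -0.50 (SE 0.21). All 20 hepatocyte markers were seen in members, with Apob, Cps1, Abcb11 and Mat1a capped by the rule. The 20 summed to 3421 to 3868 CPM in controls and 3327 to 6107 CPM in knockouts. Of the 13 tested, 9 were higher and 4 lower in knockouts, with a median log2 fold change of 0.16. The part of hepatocyte RNA in these values was not tested.

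Gene lists for sinusoidal functions were then read against the background of 0% called and a median log2 fold change of 0.01 over all tested genes. No member of any list was called, so values are given without a direction of change. Of 24 endocytosis and scavenger receptor genes 17 were tested, 10 with a positive and 7 with a negative value (median 0.11). Stab2 was at 8451, 5838 and 4109 CPM in the controls and 7783, 5107 and 6591 CPM in knockouts, with overlapping groups and a log2 fold change of 0.07 (SE 0.29). It is a gate gene, so its value comes from counts the rule used. Mrc1 and Fcgr2b had 0.39 (SE 0.29) and 0.51 (SE 0.33), and Stab1 had -0.21 (SE 0.32).

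Of 19 VEGF and angiopoietin genes 10 were tested, 8 positive and 2 negative (median 0.06). The VEGF receptors were Kdr at 0.57 (SE 0.34), Flt1 at -0.39 (SE 0.32) and Flt4 at 0.01 (SE 0.35). Kdr and Flt1, with Ptprb of the same list, are genes of the endothelial gate, so their values come from counts the rule used. Flt4 stood at 561, 197 and 416 CPM in controls and 475, 374 and 356 CPM in knockouts, with the knockouts inside the control range. The co-receptor Nrp1 was at 1021 to 1534 CPM in controls and 1546 to 2191 CPM in knockouts, just without overlap (0.39, SE 0.27). For Nrp1 and Kdr the values were 0.03 and 0.01 in the nuclei gated without Adam23.

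Of 30 endothelial transcription factors 19 were tested, 14 positive and 5 negative (median 0.15). Meis2, Maf and Tcf4, factors of endothelial identity, had log2 fold changes of 0.20 to 0.31 with standard errors of 0.26 to 0.31. Of the 15 genes of caveolae, fenestrae and diaphragms, to which Plvap belongs, 5 were tested, 3 positive and 2 negative (median 0.15). The caveolar coat gene Cavin2 had 0.37 (SE 0.47), and dynamin 2 (Dnm2), which cuts vesicles from the membrane, had -0.16 (SE 0.33).

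Of the angiocrine ligands 6 of 24 were tested, 4 positive and 2 negative (median 0.22), Hgf among them. Bmp6 and Bmp2, which set hepcidin expression in hepatocytes, had -0.28 (SE 0.39) and 0.07 (SE 0.33). In the BMP and TGF-beta list 4 of 10 tested were positive (median -0.18), and in the Notch list 1 of 3 (median -0.01). Junction and adhesion genes had a median of -0.21, with 4 of 11 positive. Genes of vascular tone had a median of 0.09, with 5 of 8 positive, and genes of the basement membrane and capillarisation had 0.18, with 7 of 10 positive. Endomucin (Emcn), of that last list, was at 35.8 to 193 CPM in controls and 211 to 386 CPM in knockouts, without overlap (0.97, SE 0.44). Its lowest value, in control 2, was under the 53.7 CPM that 3 UMIs give in that mouse. Axon guidance and adhesion genes had a median of -0.00, with 8 of 17 positive.

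Since the study concerns fatty acids, lipid uptake was read as a list of 35 genes, of which 31 had a UMI and 5 were tested. One was positive and 4 negative (median -0.14). The fatty acid transporter Cd36 was at 289, 89.5 and 145 CPM in the controls and 297, 307 and 157 CPM in knockouts, with overlap (0.46, SE 0.40). Gpihbp1, which holds lipoprotein lipase on the capillary wall, had -0.19 (SE 0.32), and Abca1 and Scarb1 had -0.16 (SE 0.38) and -0.14 (SE 0.46). The summed level of the list was 1701 to 2095 CPM in controls and 1546 to 1907 CPM in knockouts. Genes of fasting and nutrient sensing had a median of 0.23, with 9 of 15 positive. The insulin receptor (Insr) had 0.27 (SE 0.30). Of the lists for immediate early genes, cholesterol synthesis and the cell cycle no gene passed the filter.

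For antigen presentation, all 5 tested genes of the MHC list (20 listed) had positive log2 fold changes, H2-K1 at 0.67 (SE 0.34), H2-D1 at 0.49 (SE 0.34), B2m at 0.47 (SE 0.34), H2-Q7 at 0.83 (SE 0.46) and H2-Q4 at 0.87 (SE 0.47). These encode class I heavy chains and their light chain B2m, and the heavy chains are near-copies whose reads may be split. The median was 0.67, and none was called. H2-K1 was at 605, 215 and 416 CPM in the controls and 564, 643 and 811 CPM in the knockouts, which overlapped. Summed over the list, controls were at 1841, 913 and 1864 CPM and knockouts at 2206, 2352 and 2520 CPM. The groups did not overlap, with control 2 far below the other 2 controls. In members of 20 or more endothelial UMIs they did overlap, at 1690, 1105 and 2442 CPM in controls and 2236, 2770 and 2930 CPM in knockouts. The overlap came from control 3, whose B cell markers summed to 2007 CPM in those nuclei, against 48.6 and 85.0 CPM in the other controls and 19.8 to 300.4 CPM in the knockouts. Its part in the overlap was not tested.

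The interferon response list had 5 positive values of 6 tested (33 listed, median 0.29). Its summed level was 1832, 1415 and 1719 CPM in controls and 2235, 2333 and 2149 CPM in knockouts, and 1372 to 1699 against 2292 to 2424 CPM in members of 20 or more endothelial UMIs. The controls were lower in every mouse in both sets. Parp14, an interferon-induced ADP-ribosyltransferase, had 0.63 (SE 0.65), and Rnf213, a ubiquitin ligase, 0.39 (SE 0.41). In the larger set gated without Adam23, 17 of 18 tested MHC genes (median 0.62) and 21 of 26 interferon genes (median 0.22) were positive, and again none was called (0 of 8791 genes, 0%, with 331 at an unadjusted p under 0.05 in edgeR). The macrophage markers summed to 1096, 358 and 344 CPM in control members and 408, 394 and 470 CPM in knockout members, and the B cell markers to 96.4, 322 and 1303 CPM and 319, 403 and 99.6 CPM. Their part in the MHC and interferon values was not tested. Summed MHC levels in the periportal gate were 1588 to 1714 CPM in controls and 2273 to 2683 CPM in knockouts. In nuclei high for both they were 1331 to 1616 and 1853 to 2288 CPM. Nuclei with no endothelial gate UMI had MHC at 1858 to 2358 and 2652 to 3632 CPM. Their interferon levels were 2261 to 2479 and 2540 to 3043 CPM. Interferon in the periportal gate was at 2143 to 2235 and 2497 to 2814 CPM. The pericentral gate separated on MHC (1434 to 1880 and 2065 to 2720 CPM). It overlapped on interferon (1355 to 1970 and 1847 to 2125 CPM). The separation on these lists was thus not particular to members.

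**Figure D5:**
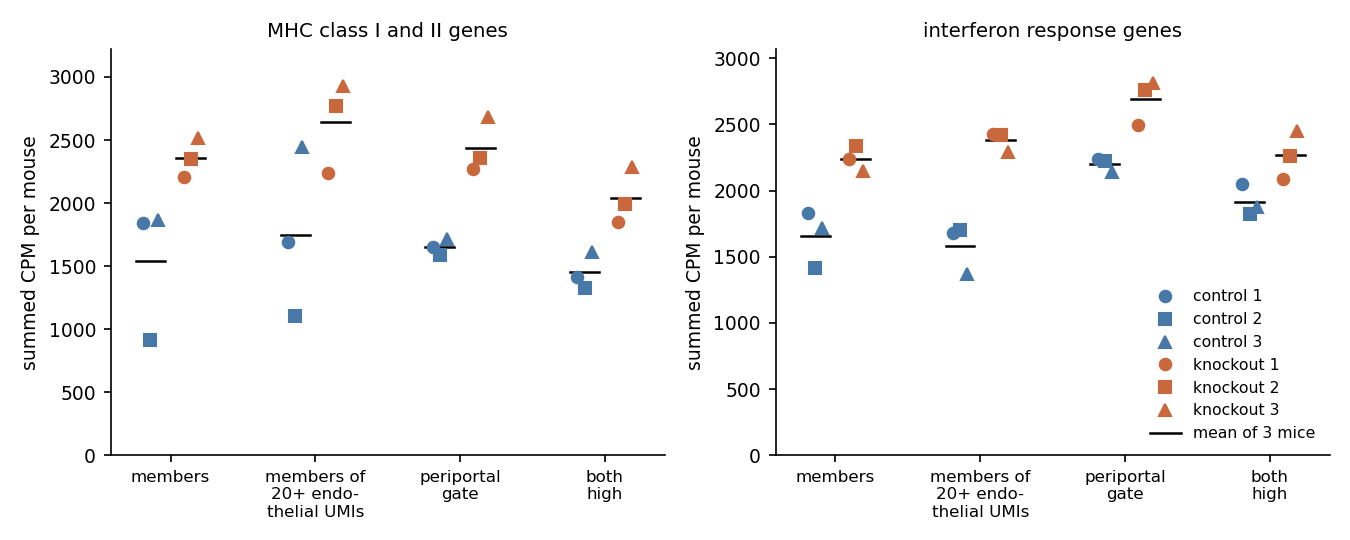
Summed CPM per mouse of the MHC and interferon lists in members, in members of 20 or more endothelial UMIs, in the periportal gate and in nuclei high for both zone sides; points are mice and bars are means of 3. In members the knockouts lie at 2206 to 2520 CPM (MHC) and 2149 to 2333 CPM (interferon), above controls at 913 to 1864 and 1415 to 1832 CPM, while MHC overlaps in members of 20 or more endothelial UMIs.

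The zone genes outside the rule gave no call. Of 5 tested pericentral genes, Car8, a carbonic anhydrase-related protein, was at 552, 394 and 362 CPM in the controls and 260, 307 and 299 CPM in knockouts, without overlap (log2 fold change -0.63, SE 0.30). In the nuclei gated without Adam23 it had -0.24 (SE 0.14). Msr1 and Osmr, the 2 tested periportal genes, had 0.17 (SE 0.65) and 0.23 (SE 0.47). The gate gene Adam23 itself, capped at 1 UMI per member, had -0.58 (SE 0.39) in members and -0.62 (SE 0.23) in the nuclei gated without it. Of the 6 genes found changed in stellate nuclei of these mice, a list that is not independent of these libraries, only Tmtc2, an O-mannosyltransferase, was abundant enough to test in members (0.57, SE 0.28). In the nuclei gated without Adam23 Tmtc2 had 0.06 (SE 0.13), and in members of 20 or more endothelial UMIs the summed level of the 6 genes overlapped, at 297 to 972 CPM in controls and 701 to 921 CPM in knockouts. Sdk1, an adhesion protein, had 0 UMIs in each control and 9, 0 and 2 in the knockouts, and A4galt, a glycosphingolipid synthase, had 10 and 12 UMIs over the controls and over the knockouts, so neither was tested. Of the mitochondrially encoded genes 3 of 8 tested were positive (median -0.02).

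Whether the knockout effect differed between members and the other gates was tested with mouse and gate in one edgeR model. Against the pericentral gate, 0 of 3166 genes were called (0%), with 101 at an unadjusted p under 0.05. No other tool was run on this difference. Against the periportal gate, 4 of 11015 genes were called (0.0363%). The count was 12 without control 1 and 7 without knockout 1. Pdzrn3, a ubiquitin ligase, and the integrin-like gene Itgbl1 had differences of 2.93 (SE 0.59, edgeR adjusted p = 0.00236) and 4.57 (SE 0.74, edgeR adjusted p = 6.0e-06). Sorbs2, a cytoskeletal adaptor, and Wdr17 had -3.72 (SE 0.86, edgeR adjusted p = 0.0373) and -4.39 (SE 0.83, edgeR adjusted p = 0.000672).

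These 4 rested on few nuclei. Itgbl1 had 2, 23 and 73 UMIs in control members and 24, 51 and 37 in knockout members, from 19 nuclei, and the groups overlapped in members. In the periportal gate its level was 1.04, 8.64 and 21.6 CPM in the 3 controls against 0 to 0.415 CPM in the knockouts. No Itgbl1 UMI lay in members of 20 or more endothelial UMIs. Pdzrn3 had 152 UMIs in 25 members, 81.6% of them in members of 5 to 9 endothelial UMIs. Sorbs2 had 5, 22 and 2 UMIs in controls and 1 in each knockout, with 18 of the 32 in 1 nucleus. Wdr17 had 17, 9 and 4 UMIs in controls and 1, 0 and 2 in knockouts, from 9 nuclei. With a gate of 20 endothelial UMIs, chosen after seeing the data, or of 10, or after thinning to 1500 UMIs, none of the 4 was called. Only Itgbl1 of the 4 was called without knockout 2, without both control 1 and knockout 2, or with no zone UMI allowed. Over the fits that gave a value, Itgbl1 was called in 16 of 17, Wdr17 in 13 of 19, Pdzrn3 in 9 of 17 and Sorbs2 in 8 of 19.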

How the data were processed

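Per the labels' protocols, libraries came from the Chromium 3′ kit version 3.1. The authors deposited unnormalised UMI counts of 32285 features for each barcode. Their matrices name Cell Ranger 7.1.0, per the file headers, and the submitters' processing notes name 7.0.1 and mm10. The sources used here do not name intron or strand settings. Groups follow the genotype label. Replicate numbers are in accession order.

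Members, lists and named genes were chosen with earlier results of these data known. Counts were summed per mouse and tested in edgeR 4.0.16 (TMM, filterByExpr, robust quasi-likelihood, Benjamini-Hochberg at 0.05). The fit was also run on simulated counts with the same spread for every gene. That run does not cover genes that rest on single nuclei. CPM use all genes. Plvap missed the filter, so its value comes from the fit without it. The rule for named genes took Plvap, the 4 markers, the 8 genes per direction of lowest p without overlap and at least 10 CPM, the most abundant list members (some are left out here) and the 10 largest gate ratios each way. Scrublet ran in scanpy 1.11.5. Of 546 listed genes 5 were not matched. Alternatives included DESeq2 1.42.0, other gates and leaving out mice. Positions are from GENCODE M21.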

Additional observations from a re-analysis of the deposited data

Results flagged for a closer look

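The knockout effect differed between members and nuclei of the periportal gate for 4 genes by the test of the difference itself (edgeR, adjusted over 11015 genes). The log2 difference was 2.93 for Pdzrn3, -3.72 for Sorbs2, -4.39 for Wdr17 and 4.57 for Itgbl1. None of the 4 was tested in members alone except Pdzrn3 (log2 fold change 0.13, SE 1.06) and Itgbl1 (-0.55, SE 1.34). The UMIs of Pdzrn3, Sorbs2 and Itgbl1 came mostly from members with fewer than 20 endothelial UMIs, and those of Wdr17 for 69.7% from 7 members with 20 or more.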

How the results depend on the processing

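Replicate numbers pair no mice. No paired analysis was possible because the numbers were given in accession order and the labels carry none. In members the count of called genes, 0, was 12 with no filter on low counts, 0 to 1 over the fits that leave out 1 mouse, and 1 without both control 1 and knockout 2. It was 0 under the other settings run. Against the pericentral gate the count of 0 was 1 with 10 endothelial UMIs, 1 with hepatocyte transcripts under 0.1%, 3 thinned to 1500 UMIs, 8 without Adam23, 5 without both mice and 0 to 0 leaving out 1 mouse. Against the periportal gate the count of 4 was 1 with no zone UMI allowed, 0 with 10 and with 20 endothelial UMIs, 2 with hepatocyte transcripts under 0.1%, 7 thinned, 9 without both mice and 3 to 12 leaving out 1 mouse (12 without control 1, 7 without knockout 1). The fitted Sorbs2 difference of 4.93 with 20 endothelial UMIs rests on 1 UMI in knockout 1 and 0 in the other mice, so it gives no direction. The share difference, 0.590 percentage points, was -2.37 without Adam23, 3.75 thinned and 0.302 to 1.02 leaving out 1 mouse. Plvap kept a negative value, -2.37 to -0.80 leaving out 1 mouse; DESeq2 gave none after the filter. The gate without Adam23 and that of 20 endothelial UMIs were chosen after seeing the data. With 16 to 48 members per mouse, most genes lie near the level of a few UMIs.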

Other observations

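Zbtb16 and Fkbp5, both induced by glucocorticoids, varied more between mice than between groups. Zbtb16 stood at 43.8, 1433 and 1900 CPM in control members and 134, 250 and 1480 CPM in knockout members. Control 1 and knockouts 1 and 2 were low, and control 2, control 3 and knockout 3 were high. The periportal gate gave 44.3, 1351 and 743 CPM and 40.8, 18.3 and 932 CPM, with the same 3 mice low. Fkbp5 was at 254, 1039 and 688 CPM in control members and 401, 154 and 925 CPM in knockout members, with the same mice low. The knockout against control log2 fold changes in members were -0.91 (SE 1.57) for Zbtb16 and -0.46 (SE 0.83) for Fkbp5, and neither was called in edgeR.

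Csmd1 was uneven across mice in each gate. It stood at 245, 53.7 and 1285 CPM in control members and 81.7, 28.8 and 28.5 CPM in knockout members, and at 210, 33.8 and 46.1 CPM and 25.9, 54.3 and 56.8 CPM in the periportal gate. Control 3 was highest in members and control 1 in the periportal gate. In members of 20 or more endothelial UMIs the level in control 3 was 234 CPM. Without the filter on low counts, which Csmd1 missed, its log2 fold change in members was -3.24 (SE 1.06, unadjusted p = 0.0164 in edgeR).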
